A study of Mus musculus with 48 samples.

Results

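The genes described here encode synaptic vesicle proteins and the machinery that fuses vesicles with the cell membrane. Members were all genes of the expression tables whose symbol belonged to a fixed set of families: the synaptotagmins (Syt), synapsins (Syn), synaptophysin and its relatives (Syp, Sypl), synaptogyrins (Syngr), SV2 proteins (Sv2), Snap proteins, vesicle-associated membrane proteins (Vamp), syntaxins (Stx), syntaxin binding proteins (Stxbp), complexins (Cplx), Rab3 GTPases, and the Rims and Unc13 scaffolds. No measured value entered that choice. It gave 71 of the 15782 genes in the tables, and all 71 were kept in every test. By role, 16 were synaptotagmins, 12 were proteins of the vesicle membrane and surface, 5 were the SNARE proteins of neuronal release, 21 were SNARE regulators and priming factors, and 17 were other SNARE and Snap genes. The synaptotagmins were grouped by family name, and not all of them sense calcium. The symbol *Snap91* belongs to a clathrin assembly protein of vesicle recycling and not to a SNARE.

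RNA was measured in situ with GeoMx digital spatial profiling (DSP), in which probes on a tissue section carry DNA tags that are released by light from a chosen area of illumination (AOI) and sequenced. The 12 mice were C57BL/6 males in 4 groups of 3, with an age of 10 weeks given for the time of launch. FLT-SAL and FLT-BuOE mice spent 35 days on the international space station and received saline or BuOE, while GC-SAL and GC-BuOE mice were ground controls held in flight hardware cages for 35 days under the same treatments, on a schedule that began 3 days later. BuOE (MnTnBuOE-2-PyP5+), a manganese porphyrin antioxidant, was injected under the skin at 1 mg/kg in 0.2 mL each week, with the earliest injection 7 days ahead of launch. All tissue was collected after return, and the flight mice were received no later than 20 h after splashdown. Each mouse gave 1 AOI in each of 4 regions, the hippocampal CA field, the dentate gyrus (DG), the frontal cortex (FCT) and the cortex (CT), for 48 AOIs in all. The areas were chosen under stains for GFAP, Iba1 and nuclei, and hold all the cells of that area. The 3 mice of a group lay on 1 slide, so slide and group cannot be told apart.

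Neurotransmitter is stored in synaptic vesicles and released when a vesicle fuses with the presynaptic membrane. The vesicle SNARE (Vamp) zips together with the membrane SNAREs (syntaxins and Snap25), synaptotagmins sense the calcium that enters with the action potential, complexins clamp the partly zipped complex, Munc13 (Unc13) helps to assemble it, and Rab3 and Rims proteins hold the vesicle at the release site. Syp, Syngr and Sv2 are abundant proteins of the vesicle membrane, and synapsins tether vesicles into a reserve pool. Many of the remaining SNAREs serve fusion steps shared by all cells, such as traffic through the Golgi, endosomes and lysosomes. Others, such as *Stx3* and *Vamp8*, lie at the cell membrane or on secretory membranes.

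The promoters of the 3 members with the largest averaged flight difference among those with a RefSeq promoter entry are shown, because they lead the flight comparison given further on. Each runs from 250 bases before to 50 bases after the annotated start (GRCm38.p6), 5′ to 3′ on the strand of the gene. Capitals mark the GC box GGGCGG, the letters bound by Sp1 family factors, on either strand. *Syp* lies at chrX:7638330-7638629 on the plus strand, *Syngr1* at chr15:80091084-80091383 on the plus strand and *Cplx1* at chr5:108549978-108550277 on the minus strand.
Syp: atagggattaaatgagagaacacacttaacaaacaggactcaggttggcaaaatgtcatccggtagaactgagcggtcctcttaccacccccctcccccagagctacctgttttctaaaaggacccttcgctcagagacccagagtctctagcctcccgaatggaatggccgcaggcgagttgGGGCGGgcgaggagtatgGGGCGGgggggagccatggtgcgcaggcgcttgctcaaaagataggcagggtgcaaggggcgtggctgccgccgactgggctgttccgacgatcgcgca
Syngr1: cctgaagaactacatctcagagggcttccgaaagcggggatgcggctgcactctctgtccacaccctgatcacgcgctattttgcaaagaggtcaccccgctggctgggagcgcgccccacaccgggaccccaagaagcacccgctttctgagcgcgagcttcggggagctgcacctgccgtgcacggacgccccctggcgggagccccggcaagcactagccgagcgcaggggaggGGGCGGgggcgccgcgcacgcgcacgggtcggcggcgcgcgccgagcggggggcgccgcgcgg
Cplx1: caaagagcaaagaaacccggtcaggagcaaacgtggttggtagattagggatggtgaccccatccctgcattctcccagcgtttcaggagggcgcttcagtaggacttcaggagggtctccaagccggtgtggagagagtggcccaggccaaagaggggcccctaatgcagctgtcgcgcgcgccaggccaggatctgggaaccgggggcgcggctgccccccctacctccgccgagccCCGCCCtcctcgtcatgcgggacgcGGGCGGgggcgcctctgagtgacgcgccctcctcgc
The G and C content of these windows was 59% for *Syp*, 72.3% for *Syngr1* and 67% for *Cplx1*, with 18, 38 and 24 CpG dinucleotides. The GC box occurred 2 times in *Syp*, 1 time in *Syngr1* and 2 times in *Cplx1*, while neither the cAMP response element TGACGTCA nor the E-box CACGTG, searched on both strands, was among their letters. Of the 71 genes, 56 had a promoter entry, with 71 promoters. The GC box was in 51 of these (71.8%) against 35.7% of all 32851 promoters, the cAMP response element in 2.82% against 1.79%, and the E-box in 14.1% against 7.15%. The median G and C content was 63% in the member promoters and 52.7% in all promoters. These are descriptions of letters in a window and carry no test.

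The vesicle and release genes were measured above background in most regions. Against 1.5 times the mean of the negative control probes, 71 of 71 genes were above background in DG, 69 in FCT, 69 in CT and 55 in CA, where 99.5%, 88.2%, 80.2% and 59.8% of all genes were. The 16 genes that were not above it in every region include *Stxbp6*, *Vamp1*, *Sypl*, *Syngr2*, *Syt2*, *Syt6* and *Syt10*. The negative controls averaged 18.6 in CA, 14.2 in FCT, 14.8 in CT and 11.2 in DG on the Q3-normalized scale, so low levels in CA rest on a higher background. Each gene has 1 probe, and levels of different genes were therefore not compared with each other.

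Depth ranged from 322629 to 1579380 deduplicated reads per AOI (median 652040), with a sequencing saturation of 81.7 to 96.2%, and 1 AOI, DG of GC-BuOE mouse 3, lay under 90%. The FLT-SAL AOIs were deeper and held more nuclei (medians 991426 reads and 579.5 nuclei) than those of GC-SAL (628307.5 and 452), GC-BuOE (639735 and 468) or FLT-BuOE (548888 and 426.5). The region labels held against marker genes: 3 of 4 dentate granule cell markers were called higher in DG than in CA, 4 of 4 CA1 markers were called lower, and 4 of 6 cortical markers were called lower in the hippocampus. An AOI is a bulk sample, in which fewer cells of a type and less RNA per cell cannot be told apart. That holds for all results given here.

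Between regions, many genes of the release machinery were lower in the hippocampus than in the cortex. Snap25, the membrane SNARE of transmitter release, averaged 177 ± 34.2 and 242 ± 40.9 (SD, n = 12 AOIs) in CA and DG, and 503 ± 88.1 and 709 ± 142 in FCT and CT. Syntaxin 1A (*Stx1a*), its partner in the membrane, averaged 53.7 ± 9.19, 43.1 ± 8.79, 142 ± 31.3 and 166 ± 18.9 in the same order. Complexin 1 (*Cplx1*), the clamp of the SNARE complex, averaged 127 ± 22.3, 140.2 ± 19.8, 335 ± 103 and 473 ± 93.2. For *Snap25*, the hippocampal AOIs reached 312 at most and the cortical AOIs began at 383. For *Stx1a* the hippocampal maximum of 71.2 lay below the cortical minimum of 76.6, and for *Cplx1* 176 lay below 194. No hippocampal AOI of these 3 genes overlapped a cortical one.

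The mean of CA and DG was compared with the mean of FCT and CT by limma over all 48 AOIs, with the 4 AOIs of a mouse treated as a block. A gene was called at an adjusted p under 0.05 (Benjamini-Hochberg over 15782 genes) with a change of more than 1.5-fold. Of the 71 genes, 17 were called, all lower in the hippocampus, where 3.18% of all genes were called in either direction and 2.3% were called lower. The log2 fold change was -1.65 (SE 0.061) for *Stx1a*, -1.54 (SE 0.061) for *Cplx1*, -1.52 (SE 0.055) for *Snap25* and -1.25 (SE 0.071) for *Sv2b*, a vesicle membrane glycoprotein. Their adjusted p-values in limma were 5.0e-45, 1.4e-42, 5.1e-46 and 2.0e-30.

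The genes called lower were spread over the roles of neuronal release. They took in 3 of 5 neuronal SNAREs (*Stx1a*, *Snap25* and *Vamp2*, the last at -0.73) and 5 of 12 vesicle membrane genes (*Sv2b*, *Syngr1* at -1.18, *Syn1* at -0.96, *Sv2a* at -0.79 and *Syp* at -0.72). They took in 6 of 21 regulators, among them *Rims3* at -0.97, *Rab3a* at -0.92, *Rims4* at -0.87 and *Rims1* at -0.72 beside *Cplx1*. Of the synaptotagmins 3 of 16 were called, *Syt1* at -0.84, *Syt4* at -0.68 and *Syt13* at -0.66, while 0 of the 17 other SNARE and Snap genes were. The share of all genes without the fold threshold is not given, so counts at that limit show neither an excess nor its absence. Without the fold threshold 32 genes were lower and 10 higher in the hippocampus. The higher ones included *Syn3* (0.57), *Syt7* (0.55), *Syt17* (0.49), *Stx3* (0.42) and *Stxbp6* (0.39), so that *Syn3* and *Syt7* lay in the opposite direction to *Syn1* and *Syt1*.

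The median difference of the 71 genes was -0.08, against 0.03 over all genes. Genes with a mean level of at least 100 had medians of -0.81 for the 14 members and -0.17 for all 563 genes. Of the pan-neuronal markers 3 of 8 were called lower in the hippocampus and 0 higher, and of the oligodendrocyte markers 5 of 7 were called lower. The part of cell makeup in these differences was not tested. Subtracting the negative control level before the logarithm raised the count from 17 to 30, with 3 of the 30 higher in the hippocampus. The share of all genes under that setting is not given.

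**Figure D1:**
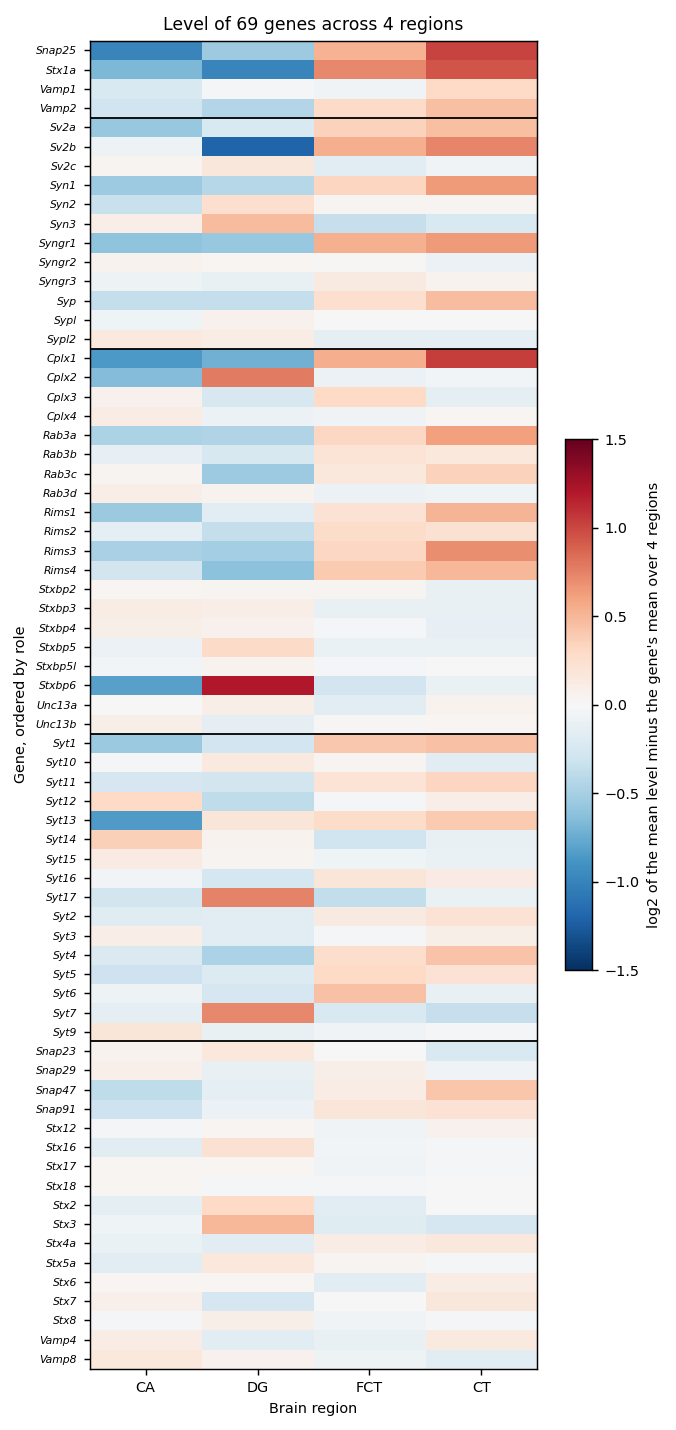
Level of 69 of the 71 genes in each brain region, ordered by role (x axis: region; y axis: gene; colour: log2 of the mean level over 12 AOIs minus the gene's mean over the 4 regions). The neuronal SNAREs *Snap25* and *Stx1a* and the regulator *Cplx1* are lowest in CA and DG and highest in CT, while *Stxbp6*, *Cplx2*, *Syt7* and *Syt17* are highest in DG.

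The dentate gyrus differed from the CA field in a small set of release genes. Stxbp6 (amisyn), which binds syntaxin in place of a vesicle SNARE, ranged from 84.2 to 136 over the 12 DG AOIs (mean 112 ± 17.4, SD) and from 13.3 to 38.6 in CA (mean 27.7, at 1.49 times background). Complexin 2 (*Cplx2*) ranged from 217 to 403 in DG (mean 306 ± 56.6) and from 83.1 to 141 in CA (mean 113 ± 17.3). Synaptotagmin 17 (*Syt17*) ranged from 57.5 to 78.8 in DG (mean 68.4 ± 7.17) and from 20.5 to 47.4 in CA (mean 33.5 ± 7.66). The ranges of the 2 regions did not overlap for any of these 3 genes, and the cortical means, 39.9 and 45.3 for *Stxbp6*, 167 and 172 for *Cplx2* and 31.6 and 38.0 for *Syt17* in FCT and CT, also lay below those of DG. *Sv2b* went the other way, with 17.8 to 41.9 in DG (mean 24.7 ± 6.09) and 40.0 to 67.1 in CA (mean 53.7 ± 11.4).

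By limma, 8 of the 71 genes were called between DG and CA, 6 higher and 2 lower in DG, where 4.1% of all genes were called. The log2 fold change was 2.00 (SE 0.102, adjusted p = 3.5e-33) for *Stxbp6*, 1.42 (SE 0.087, adjusted p = 1.8e-27) for *Cplx2* and 1.03 (SE 0.108, adjusted p = 5.7e-14) for *Syt17*. It was -1.09 (SE 0.100, adjusted p = 9.7e-17) for *Sv2b* by the same limma test. The other called genes were *Syt13* (0.99), *Syt7* (0.85) and *Syn2* (0.59), higher in DG, and *Syt12* (-0.67), lower. Synaptotagmin 7 is a slow, high-affinity calcium sensor that acts in facilitation and asynchronous release. None of the 5 neuronal SNAREs was called, and *Snap25* was 0.45 higher in DG, inside the fold limit.

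The comparison was repeated with background removed. With the negative control level subtracted, 36 genes were called between DG and CA, 34 of them higher in DG, with no share of all genes given. The median of all genes moved from -0.07 to 0.71. Against that shifted median, *Stxbp6* (3.61), *Syt17* (2.08) and *Cplx2* (1.63) lay above it and *Sv2b* (-1.34) below. The fold of *Stxbp6* rests on a level in CA that was close to background.

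Between FCT and CT the differences were small. By limma 0 of the 71 were called between them (0.101% of all genes), and at an adjusted p under 0.05 with no fold threshold 4 were, where 0.786% of all genes were. The 4 were *Cplx1* (log2 fold change -0.53), *Snap25* (-0.49) and *Syn1* (-0.32), lower in FCT, and *Syt6* (0.47), higher in FCT. At an unadjusted p under 0.05, 16 were lower and 3 higher in FCT. The share of all genes at that limit is not given, so these counts show neither an excess nor its absence. *Snap25* in FCT ranged from 383 to 658 and in CT from 448 to 959.9, so single AOIs overlapped.

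**Figure D2:**
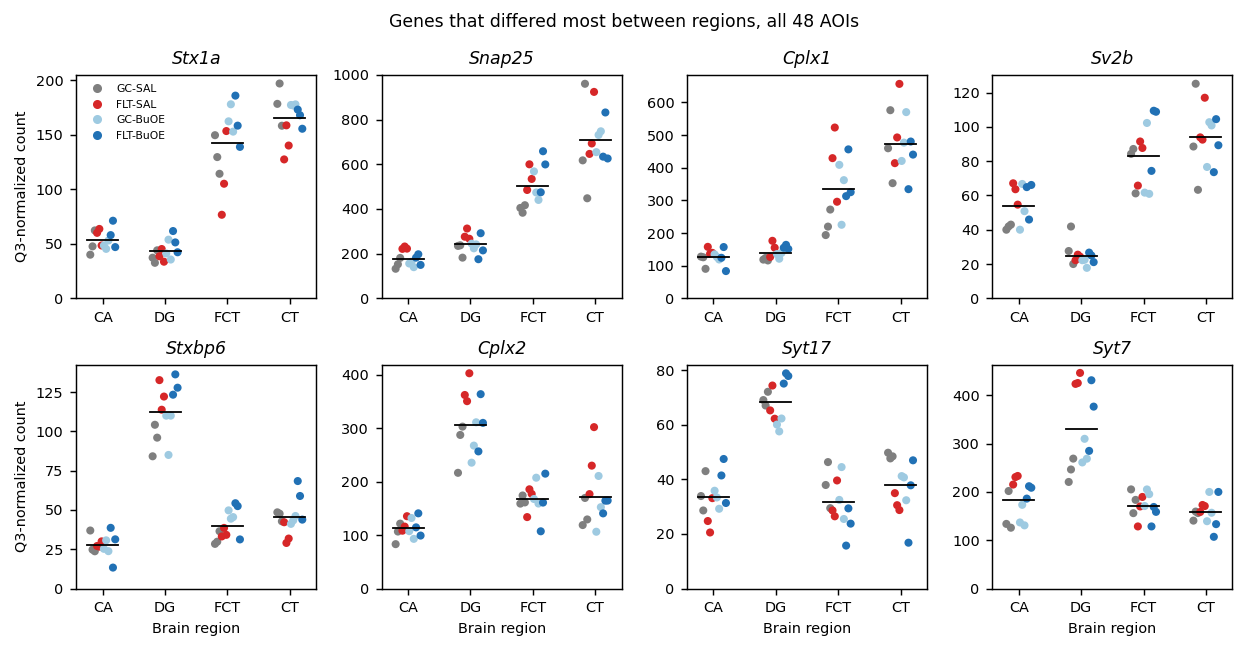
Q3-normalized count (y axis) of 8 genes in the 48 AOIs by brain region (x axis); points are AOIs coloured by group and bars are means over the 12 AOIs of a region. *Stx1a*, *Snap25* and *Cplx1* show no overlap between hippocampal and cortical AOIs, and *Stxbp6*, *Cplx2* and *Syt17* none between DG and CA.

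Flight was compared with ground in saline mice in each region, by limma on the 12 AOIs of the region with the 4 groups sharing 1 estimate of the spread. In DG, 2 of the 71 genes were called, both higher after flight, where 0.266% of all genes were called. Synaptotagmin 7 (*Syt7*; GRCm38 chr19:10389090-10453180, plus strand) measured 221, 247 and 269 in the 3 GC-SAL mice, 424, 426 and 447 in FLT-SAL, 261, 310.2 and 269 in GC-BuOE and 285, 432 and 377 in FLT-BuOE. Synaptophysin (*Syp*; chrX:7638471-7653256, plus strand), the most used marker of synaptic vesicles, measured 171, 171 and 159 in GC-SAL, 257, 282 and 272 in FLT-SAL, 201, 183 and 209 in GC-BuOE and 190.1, 306 and 197 in FLT-BuOE. The saline groups did not overlap for either gene, and in FLT-BuOE mouse 2 lay at the flight level while mouse 1 lay near the ground level. The log2 fold change was 0.82 (SE 0.123, limma adjusted p = 2.1e-04) for *Syt7* and 0.69 (SE 0.132, limma adjusted p = 0.0032) for *Syp*.

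Both calls were also made by edgeR on the counts (0.82, adjusted p = 6.1e-06, and 0.70, adjusted p = 4.4e-04), by DESeq2 (adjusted p = 1.9e-07 and 3.8e-04), and with any mouse left out. With log2 depth of the AOI as a covariate neither was called, *Syt7* at 0.56 (SE 0.184, limma adjusted p = 0.60) and *Syp* at 0.55 (SE 0.202, limma adjusted p = 0.78). With the number of nuclei as a covariate *Syt7* alone was called. The DG AOIs of FLT-SAL held 965868 to 1372780 reads and 545 to 640 nuclei, and those of GC-SAL 496732 to 767199 reads and 477 to 528 nuclei, so that the saline groups did not overlap in depth. The summed level of 8 pan-neuronal markers was 882 to 1009 in FLT-SAL and 762 to 869 in GC-SAL, that of 4 excitatory markers 2807 to 3051 against 1913 to 2334, and that of 7 oligodendrocyte markers 438 to 499.5 against 481 to 524. Without overlap, 8 astrocyte markers summed to 495 to 559 against 419 to 457, 5 GABAergic markers to 187 to 244 against 159 to 179, 4 granule cell markers to 283 to 333 against 230.5 to 255, and 6 microglial markers to 156 to 162 against 165 to 183. Such sums weigh each marker by its level. In DG the highest excitatory marker was *Nrgn*, at 135 times background, with a saline difference of 0.64 (limma adjusted p = 4.8e-04). *Camk2a* stood at 0.19, *Slc17a7* at 0.18 and *Neurod6* at 0.09 (limma adjusted p = 0.77, 0.86 and 0.97). The part of cell makeup in the 2 calls was not tested.

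At an unadjusted p under 0.05 the DG had 18 of the 71 genes higher and 3 lower after flight, where 7.41% of all genes passed in either direction. The 2 saline groups did not overlap for 19 genes that were higher and 6 that were lower, against 7.39% and 7.45% of all genes. The higher ones took in *Snap29* (log2 fold change 0.78), *Sypl* (0.71), *Stx3* (0.57), *Rab3a* (0.54) and *Syt13* (0.54), and the lower ones were *Stx4a* (-0.46), *Stx16* (-0.41) and *Rims1* (-0.40). By role the median was 0.35 for the neuronal SNAREs, 0.28 for the vesicle membrane genes, 0.28 for the regulators, 0.03 for the synaptotagmins and -0.02 for the other SNAREs. By level, the 14 members with a mean of at least 100 had a median of 0.37 and all 563 genes of that level 0.17, while the median of all genes was -0.01.

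The membrane SNARE *Snap25* (chr2:136713453-136782428, plus strand) and the fast calcium sensor *Syt1* (chr10:108497650-109010982, minus strand) were not called in DG. *Snap25* measured 235, 237 and 182 in GC-SAL, 276, 312 and 267 in FLT-SAL, 245, 224 and 241 in GC-BuOE and 175, 291 and 215 in FLT-BuOE. *Syt1* measured 117, 121 and 113 in GC-SAL, 152, 164 and 157 in FLT-SAL, 147, 118 and 129 in GC-BuOE and 120.1, 165 and 165 in FLT-BuOE. The saline groups were apart for both genes, with log2 fold changes of 0.39 (limma adjusted p = 0.30) and 0.42 (limma adjusted p = 0.24), and the BuOE groups overlapped. With log2 depth as a covariate the differences were 0.17 and 0.16.

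In CA 0 of the 71 genes were called (0.139% of all genes). *Syp* measured 152, 198 and 181 in GC-SAL, 278, 280.2 and 247 in FLT-SAL, 189.6, 169 and 160.1 in GC-BuOE and 243, 256 and 252 in FLT-BuOE. Its flight groups lay above its ground groups with no overlap under either treatment, at 0.60 (SE 0.143, limma adjusted p = 0.051) in saline. *Snap25* measured 132, 152 and 181 in GC-SAL, 221, 232 and 222 in FLT-SAL, 156, 164 and 139.5 in GC-BuOE and 182, 197 and 149.7 in FLT-BuOE. *Syt1* measured 97.0, 114 and 87.5 in GC-SAL, 139, 135 and 139 in FLT-SAL, 94.8, 121 and 96.3 in GC-BuOE and 124, 96.4 and 144 in FLT-BuOE. For these 2 genes the saline groups were apart and the BuOE groups overlapped, with saline differences of 0.55 (limma adjusted p = 0.13) and 0.47 (limma adjusted p = 0.36). The CA AOIs of FLT-SAL held 603927 to 948561 reads and those of GC-SAL 370066 to 483270, without overlap. With log2 depth as a covariate the saline difference was 0.81 (limma adjusted p = 0.18) for *Syp* and 0.52 (limma adjusted p = 0.62) for *Snap25*.

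Synaptogyrin 1 (*Syngr1*), a vesicle membrane protein, measured 60.0, 30.5 and 37.1 in CA of GC-SAL, 69.5, 69.8 and 82.4 in FLT-SAL, 44.2, 54.7 and 60.6 in GC-BuOE and 44.2, 68.2 and 55.7 in FLT-BuOE. Its saline difference of 0.84 (SE 0.209, limma adjusted p = 0.068) missed the threshold, and edgeR called it (0.76, adjusted p = 0.049) while DESeq2 called 0 genes. With log2 depth as a covariate the difference of *Syngr1* was 0.50 (limma adjusted p = 0.77). At an unadjusted p under 0.05, 10 genes were higher and 2 lower in CA, where 6.73% of all genes passed. The median of the 71 genes was 0.10 and that of all genes 0.02, and the vesicle membrane group had the highest role median, 0.26. Summed pan-neuronal markers were 919.8 to 1003 in FLT-SAL and 743 to 829 in GC-SAL, and summed excitatory markers 2530 to 3079 and 1874 to 2350, again with no overlap. GABAergic markers (184 to 206 against 156 to 165) and CA1 markers (496 to 541 against 332 to 398) did not overlap either. Their part in the values of the vesicle genes was not tested.

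In FCT 0 of the 71 genes were called (0.0507% of all genes), and at an unadjusted p under 0.05 there were 10 higher and 2 lower, where 5.66% of all genes passed. *Syp* measured 286, 252 and 244 in GC-SAL, 293, 349 and 379 in FLT-SAL, 322, 333 and 323 in GC-BuOE and 342, 459.8 and 390.2 in FLT-BuOE. *Snap25* measured 404, 383 and 417 in GC-SAL, 485, 599.6 and 534 in FLT-SAL, 568, 474 and 440.2 in GC-BuOE and 475, 658 and 599 in FLT-BuOE. Both had saline groups that did not overlap, at 0.38 (limma adjusted p = 0.72) and 0.42 (limma adjusted p = 0.59), and with log2 depth as a covariate at 0.19 and 0.43. *Syt1* measured 194, 206 and 177 in GC-SAL, 186, 234 and 253 in FLT-SAL, 268, 235 and 187 in GC-BuOE and 233, 294 and 240.1 in FLT-BuOE, with overlapping groups. *Cplx1* measured 194, 219.7 and 272 in GC-SAL, 429, 523 and 296 in FLT-SAL, 409, 225 and 362 in GC-BuOE and 313, 456 and 325 in FLT-BuOE. The saline groups of *Cplx1* were apart at 0.84 (SE 0.182, limma adjusted p = 0.055), and edgeR called it (0.84, adjusted p = 0.018) together with the low-level *Syt6* (-0.86, adjusted p = 0.031), while DESeq2 called 0 genes. With log2 depth as a covariate *Cplx1* stood at 1.19 (limma adjusted p = 0.11). Depth did not overlap here either, with 991160 to 1579380 reads in FLT-SAL and 601288 to 897280 in GC-SAL. In FCT summed oligodendrocyte markers were 1198 to 1890 in FLT-SAL and 986 to 1165 in GC-SAL, and GABAergic markers 258 to 322 and 214 to 241, and their part in these values was not tested.

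In CT 0 of the 71 genes were called (0.0887% of all genes), and at an unadjusted p under 0.05 there were 6 higher and 7 lower, where 5.27% of all genes passed. *Syp* measured 364, 515 and 235 in GC-SAL, 375, 428 and 455 in FLT-SAL, 330.5, 380.2 and 349 in GC-BuOE and 302, 451 and 407 in FLT-BuOE. *Snap25* measured 617, 959.9 and 448 in GC-SAL, 646, 693 and 924 in FLT-SAL, 654, 731 and 747 in GC-BuOE and 634, 832 and 626 in FLT-BuOE. *Syt1* measured 207, 283 and 153 in GC-SAL, 209.6, 246 and 282 in FLT-SAL, 170.4, 247 and 231 in GC-BuOE and 198, 287 and 241 in FLT-BuOE. For all 3 genes GC-SAL mouse 2 was the highest and mouse 3 the lowest of its group, and the FLT-SAL values lay between them. The saline differences were 0.24, 0.21 and 0.23 (limma adjusted p = 0.999 each), and without GC-SAL mouse 3 those of *Syp* and *Snap25* were -0.050 and -0.047. By edgeR and DESeq2 0 genes were called in CT.

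*Cplx2* had the largest saline difference of the 71 genes in CT. It measured 119, 169.6 and 129 in GC-SAL, 177, 230.1 and 302 in FLT-SAL, 106, 211 and 152 in GC-BuOE and 141, 165 and 165 in FLT-BuOE. The saline groups were apart at 0.74 (limma adjusted p = 0.13), and with log2 depth as a covariate the difference was 0.28. *Syt17* stood at -0.79 in CT under that covariate (limma adjusted p = 0.89). The CT AOI of GC-SAL mouse 1 held 140 nuclei, the fewest of all AOIs, and summed oligodendrocyte markers in CT were 1269 to 1786 in FLT-SAL and 699 to 769 in GC-SAL. Lower in FLT-SAL without overlap were the summed cortical markers, 333 to 359 against 370 to 428, and, narrowly, those of endothelium and vessel wall, 127 to 139.08 against 139.13 to 162. Their part in the difference was not tested.

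**Figure D3:**
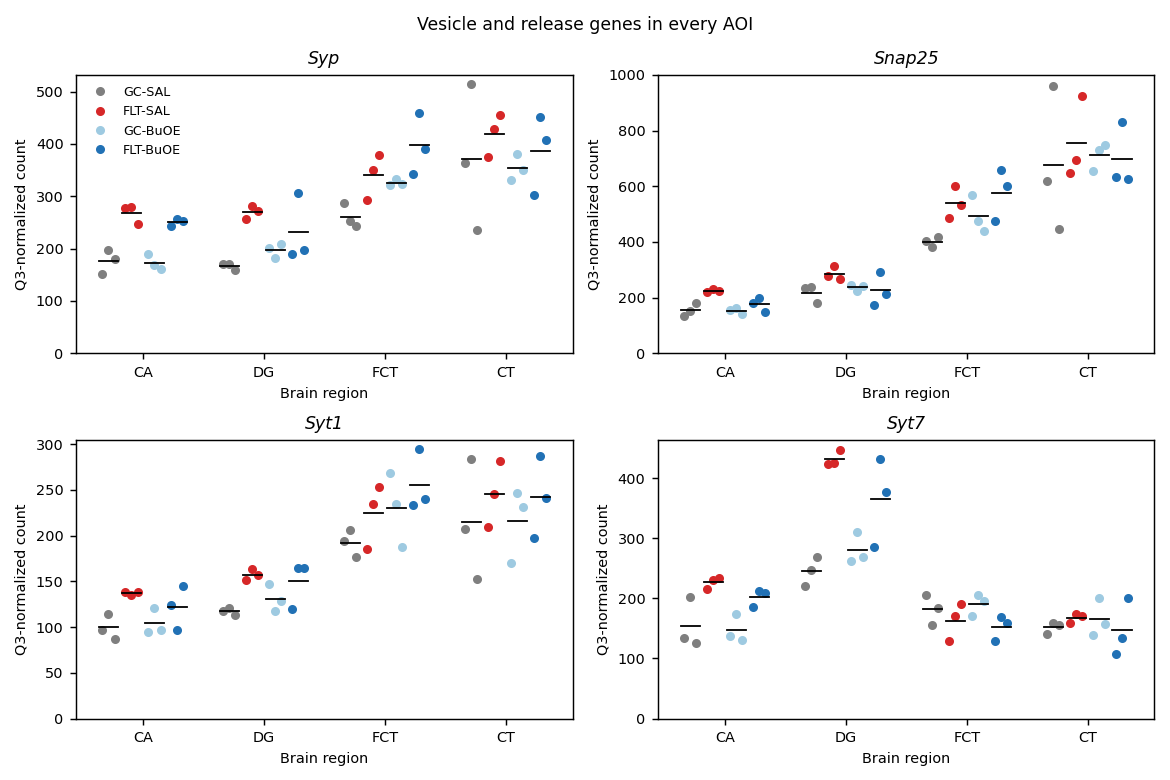
Q3-normalized count (y axis) of *Syp*, *Snap25*, *Syt1* and *Syt7* in every AOI by region (x axis) and group (colour); points are mice and bars are group means (n = 3). In CA and DG the FLT-SAL points of all 4 genes lie above the GC-SAL points, and in CT they overlap for *Syp*, *Snap25* and *Syt1*.

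Whether the flight difference itself differed between regions was tested by setting each region against the mean of the other 3 in the fit over 48 AOIs. Over the 4 contrasts, 0 of 284 pairs of gene and contrast reached an adjusted p under 0.05 in limma (0.0127% of all pairs), and 24 did at an unadjusted p under 0.05 (4.38% of all pairs). *Syt7* stood at 0.63 (limma adjusted p = 0.44) for DG and at -0.68 (limma adjusted p = 0.30) for FCT, so the call in DG is not shown to be particular to that region. Without GC-SAL mouse 2 there was 1 such call, and edgeR with the mouse as a fixed block made 2.

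Averaged over the 4 regions, the saline flight difference was small and mostly upward. In the limma fit over 48 AOIs, 0 of the 71 genes passed both limits (0.095% of all genes), but 13 had an adjusted p under 0.05, 12 of them higher after flight, where 1.85% of all genes passed and 1.48% were higher. The higher vesicle membrane genes were *Syp* (log2 fold change 0.48, SE 0.079), *Syngr1* (0.44, SE 0.096), *Sv2a* (0.35, SE 0.087) and *Syn1* (0.28, SE 0.077). The SNAREs were *Snap25* (0.39, SE 0.081) and *Stx3* (0.40, SE 0.090), a syntaxin of apical membranes and of dendrites. The regulators were *Cplx1* (0.42, SE 0.091), *Rab3a* (0.39, SE 0.087) and *Cplx2* (0.36, SE 0.091). The synaptotagmins were *Syt7* (0.34, SE 0.082), *Syt1* (0.33, SE 0.083) and *Syt11* (0.31, SE 0.081), of which Syt11 binds no calcium. *Stx16*, a syntaxin of the trans-Golgi network, was the 1 gene that fell (-0.32, SE 0.090). The adjusted p-values in limma ran from 2.3e-05 for *Syp* to 0.034 for *Stx16*, and *Vamp2*, the main vesicle SNARE, stood just outside at 0.24 (limma adjusted p = 0.063). The mouse block used 1 correlation for all genes, 0.0255, and without the block 14 genes passed. These p-values, like those of the other group averages over regions, thus treat the 4 AOIs of a mouse almost as separate replicates. Counts summed per mouse are tested further on.

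By mouse, the mean log2 level of *Syp* over the 4 regions was 7.84, 8.01 and 7.66 in the GC-SAL mice, 8.22, 8.37 and 8.36 in FLT-SAL, 7.99, 7.97 and 7.96 in GC-BuOE and 8.04, 8.49 and 8.22 in FLT-BuOE. For *Snap25* it was 8.22, 8.41 and 8.13 in GC-SAL, 8.54, 8.71 and 8.70 in FLT-SAL, 8.44, 8.40 and 8.35 in GC-BuOE and 8.30, 8.72 and 8.38 in FLT-BuOE. For *Stx3* it was 5.55, 5.66 and 5.69 in GC-SAL, 6.01, 5.97 and 6.10 in FLT-SAL, 5.55, 5.49 and 5.72 in GC-BuOE and 6.11, 6.24 and 5.90 in FLT-BuOE. Since the 13 genes were picked by this comparison, these means describe them and add no support. The 3 FLT-SAL means lay beyond the 3 GC-SAL means for each of the 13, with 7.23 against 7.22 as the nearest values in the closest case, *Syt11*. Of all 71 genes such means were apart for 21 that were higher and 10 that were lower, against 8.59% and 6.25% of all genes. Of the 12 higher genes, 10 were above zero in all 4 regions, and *Syt7* and *Cplx2* in 3 of them.

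By role, with an adjusted p under 0.05, 4 of 12 vesicle membrane genes, 1 of 5 neuronal SNAREs, 3 of 21 regulators, 3 of 16 synaptotagmins and 1 of 17 other SNARE and Snap genes were higher, and *Stx16* was the 1 that was lower. The median of the 71 genes was 0.09 and 50 of them were above zero, against a median of 0.01 and 53.4% of all genes. By level, 10 of the 14 members with a mean of at least 100 passed, all higher, and of all 563 genes at that level 110 passed higher and 12 lower. Of the 16 genes that were not above background in every region 0 passed.

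**Figure D4:**
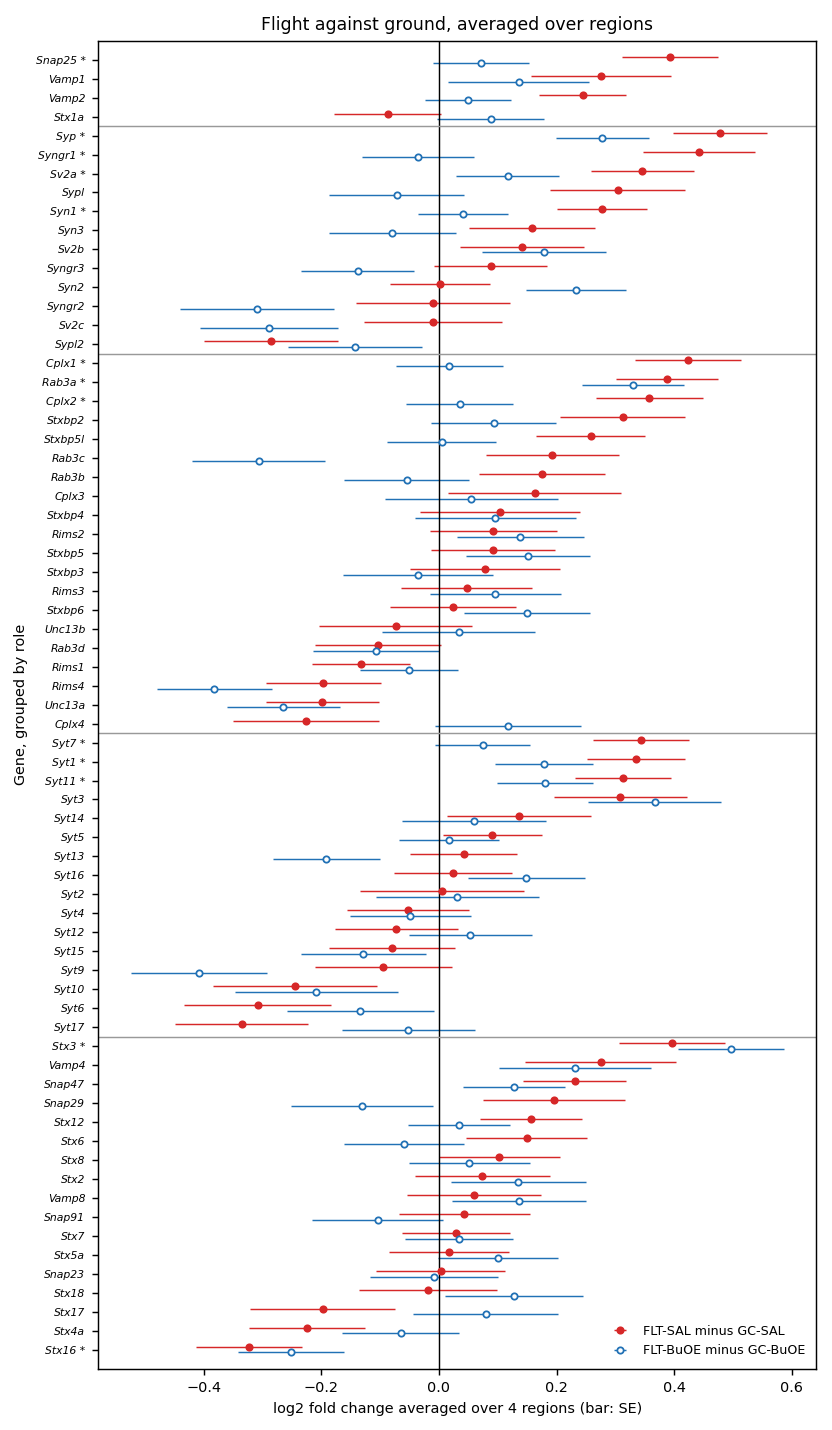
Flight minus ground, averaged over the 4 regions, for 69 of the 71 genes grouped by role (y axis), as log2 fold change (x axis; bars: SE from limma), in saline (filled) and BuOE (open) mice; a star marks an adjusted p under 0.05 in saline. The saline points of *Syp*, *Syngr1*, *Cplx1*, *Stx3* and *Snap25* reach 0.39 to 0.48, and those of *Stx16* lie at -0.32.

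The averaged calls moved with depth and with single mice. With log2 depth of the AOI as a covariate, 0 of the 13 kept an adjusted p under 0.05, and 1 other gene, *Syt17*, passed at -0.64 (limma adjusted p = 0.029). *Syp* then stood at 0.35 (limma adjusted p = 0.25), *Snap25* at 0.26, *Stx3* at 0.35 and *Syngr1* at 0.10. Depth did not overlap between the saline groups in CA, DG or FCT, so this fit cannot separate depth well from group. The SE of *Syp* was 0.079 without the covariate and 0.105 with it. The number of nuclei as a covariate left 5 genes, *Cplx1*, *Rab3a*, *Stx16*, *Syngr1* and *Syp*. When the counts of the 4 AOIs of a mouse were summed and tested by edgeR, 1 gene passed, *Stx3* at 0.43 (adjusted p = 0.034), with *Syp* at 0.35 (adjusted p = 0.29). Omitting mouse 2 or 3 of FLT-SAL, or mouse 1 of GC-SAL, gave 4 genes in each case and omitting mouse 3 of GC-SAL gave 7, with *Syp* and *Snap25* among those that passed in each of these fits.

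Markers of several cell types moved in the same comparison. Of the pan-neuronal markers 2 of 8 were higher after flight at an adjusted p under 0.05 in limma (*Eno2* at 0.37 and *Thy1* at 0.36), of the excitatory markers 0 of 4 (*Nrgn* at 0.25, adjusted p = 0.050, and *Slc17a7* at 0.25, adjusted p = 0.13, were nearest), of the GABAergic markers 2 of 5, of the oligodendrocyte markers 4 of 7 with *Mobp* at 0.71, of the astrocyte markers 1 of 8 and of the microglial markers 0 of 6. Their part in the vesicle gene differences was not tested.

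**Figure D5:**
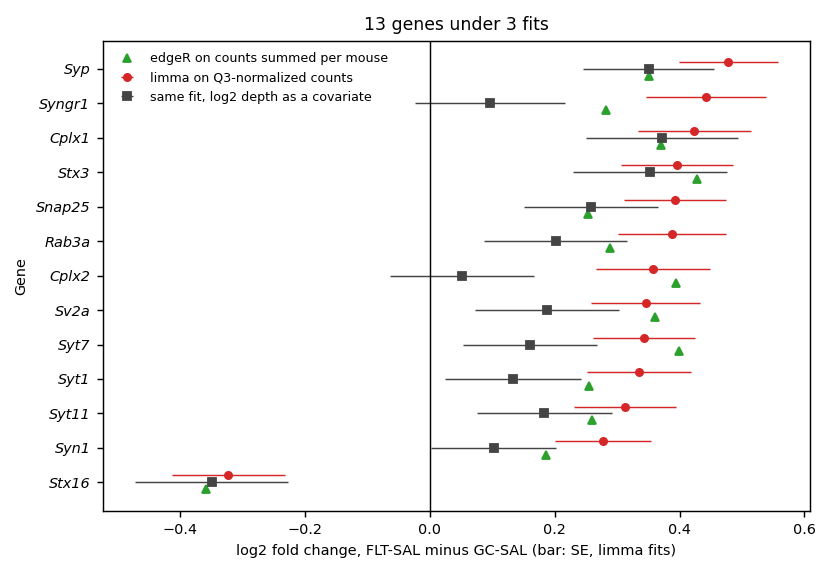
Saline flight difference averaged over regions for the 13 genes (y axis) as log2 fold change (x axis) under limma, limma with log2 depth as a covariate, and edgeR on counts summed per mouse; bars are SEs of the limma fits. All points keep their side of zero, and *Syngr1* drops from 0.44 to 0.10 and *Cplx2* from 0.36 to 0.05 with the covariate.

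In mice given BuOE, *Stx3* and *Rab3a* were higher and *Rims4* lower after flight in the limma average over regions, but not as calls within regions. Within regions 0 of 284 pairs of gene and region were called between FLT-BuOE and GC-BuOE (0.0459% of all pairs), and 38 passed an unadjusted p under 0.05, 25 higher and 13 lower (7.39% of all pairs). By edgeR 1 pair was called, *Stx3* in CA (0.86, adjusted p = 0.046), and by DESeq2 0. Without FLT-BuOE mouse 2, *Rims4* was called in FCT (-0.88, limma adjusted p = 0.048). Averaged over regions, 3 genes had an adjusted p under 0.05 in limma, where 0.672% of all genes did: *Stx3* at 0.50 (adjusted p = 2.2e-04), *Rab3a* at 0.33 (adjusted p = 0.043) and *Rims4*, a small Rims isoform, at -0.38 (adjusted p = 0.034). *Syp* stood at 0.28 (limma adjusted p = 0.086), *Syngr1* at -0.04 and *Cplx1* at 0.02. With log2 depth as a covariate *Rims4* no longer passed (-0.34, limma adjusted p = 0.093) and *Syp* did (0.32, limma adjusted p = 0.024), while *Rab3a* stood at 0.39 (limma adjusted p = 0.0055). The count was 1 in place of 3 when mouse 3 of FLT-BuOE, mouse 2 or 3 of FLT-SAL, or mouse 2 or 3 of GC-BuOE was left out. It was also 1 by edgeR on counts summed per mouse.

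Syntaxin 3 was thus higher after flight in both averaged comparisons, which share no samples but share the estimate of the spread. In CA it measured 46.2, 53.4 and 53.4 in GC-SAL, 56.5, 64.7 and 60.0 in FLT-SAL, 42.1, 33.4 and 40.0 in GC-BuOE and 71.8, 71.2 and 62.6 in FLT-BuOE. In DG it measured 56.6, 69.8 and 70.0 in GC-SAL, 105, 92.5 and 93.6 in FLT-SAL, 63.4, 73.8 and 73.4 in GC-BuOE and 86.7, 111 and 73.4 in FLT-BuOE. In these 2 regions flight and ground did not overlap, except in DG under BuOE, where FLT-BuOE mouse 3 equalled a ground mouse. In FCT it measured 45.3, 44.7 and 34.1 in GC-SAL, 53.2, 45.7 and 64.3 in FLT-SAL, 42.2, 36.3 and 53.7 in GC-BuOE and 64.3, 66.7 and 53.8 in FLT-BuOE. In CT it measured 37.6, 36.2 and 51.2 in GC-SAL, 51.7, 53.5 and 58.0 in FLT-SAL, 38.9, 42.0 and 45.4 in GC-BuOE and 52.9, 58.9 and 48.5 in FLT-BuOE. The cortical groups were apart under both treatments, with 45.7 against 45.3 and 53.8 against 53.7 as the nearest values in FCT. With log2 depth as a covariate the averaged difference of *Stx3* was 0.51 in mice given BuOE (limma adjusted p = 2.5e-04) and 0.35 in saline mice (limma adjusted p = 0.43).

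BuOE was compared with saline in flight to ask what the drug did there. Within regions 0 of the 71 genes were called in CA (0.00634% of all genes), DG (0%), FCT (0.0317%) or CT (0.0697%). By edgeR and DESeq2 0 were called in any region as well. At an unadjusted p under 0.05, CA had 2 higher and 1 lower (4.96% of all genes passed), DG had 2 higher and 8 lower (6.2%), FCT had 2 higher and 5 lower (7.65%), and CT had 2 higher and 3 lower (5.73%). Without FLT-SAL mouse 3, *Stx1a* was called in FCT (0.83, limma adjusted p = 0.019), and without FLT-BuOE mouse 3, *Stxbp6* was called in CT (0.89, limma adjusted p = 0.031). Those lower in DG included *Snap25* (-0.35), *Syt7* (-0.27), *Cplx2* (-0.27) and *Vamp2* (-0.27), and *Stx1a* was higher in DG (0.39) and FCT (0.57). Averaged over regions 0 genes had an adjusted p under 0.05 in limma (0.437% of all genes), and 4 were higher and 10 lower at an unadjusted p under 0.05 (8.57% of all genes). The largest was *Stx1a* at 0.30 (limma adjusted p = 0.13). FLT-SAL serves in both this comparison and the saline flight comparison, and their values are not independent.

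On the ground BuOE gave no call either. Between GC-BuOE and GC-SAL 0 of 284 pairs of gene and region were called (0.00158% of all pairs), and 24 passed an unadjusted p under 0.05, 17 higher and 7 lower (5.05% of all pairs). By edgeR and DESeq2 0 pairs were called, and without GC-SAL mouse 2 limma called *Rab3c* in FCT (1.03, adjusted p = 0.045). Averaged over regions 0 genes passed in limma (0% of all genes), and 6 were higher and 1 lower at an unadjusted p under 0.05 (4.66% of all genes). *Rab3c* had the largest difference, 0.45 (SE 0.113, limma adjusted p = 0.71).

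The interaction asked whether the flight difference itself differed between BuOE and saline mice. Over the 4 regional fits 0 of 284 pairs had an adjusted p under 0.05 in limma (0.00792% of all pairs), and 28 had an unadjusted p under 0.05, 6 positive and 22 negative (5.51% of all pairs). Averaged over regions 0 genes passed (0.152% of all genes), and 9 passed unadjusted, all negative (7.04% of all genes). They included *Rab3c* (-0.50), *Syngr1* (-0.48), *Cplx1* (-0.41), *Sypl* (-0.38), *Cplx2* (-0.32), *Snap25* (-0.32), *Syt7* (-0.27) and *Syn1* (-0.24). The lowest adjusted p in limma was 0.18, for *Syngr1*, and without FLT-BuOE mouse 2 there were 2 calls. The flight difference of these genes was thus not shown to differ between treatments.

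Other genes of exocytosis and the vesicle cycle, 46 in all, were taken from a list outside the families given above. In the saline flight average 6 of the 46 had an adjusted p under 0.05 in limma, all higher, against 1.85% of all genes. They were *Prrt2* (0.53), a regulator of release, *Sncb* (0.48), beta-synuclein, *Slc32a1* (0.44), the vesicular GABA transporter, *Napa* (0.43), the adaptor that recycles SNARE complexes, and the dynamins *Dnm2* (0.40) and *Dnm1* (0.39), which pinch off endocytic vesicles. Between hippocampus and cortex 5 of the 46 were called lower and 2 higher in the hippocampus, against 3.18% of all genes called, the latter *Doc2b* (2.07), a calcium sensor of spontaneous release, and *Ppfia2* (1.02), a liprin scaffold. Between DG and CA 7 were called higher and 2 lower in DG, against 4.1% of all genes called, with *Rph3a* (1.66), a Rab3 effector, the highest of them, and *Cadps2* (-0.74), a priming factor of dense core vesicles, the lowest.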

How the data were processed

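RNA tags were counted by GeoMx DSP with mouse whole transcriptome probes in 48 AOIs, 4 from each of 12 mice. Per the file headers, the authors turned reads into deduplicated counts per probe tag with GeoMx NGS Pipeline 2.3.4, and the deposited count files name tags, not genes. The authors also deposited 4 gene tables, 1 per region, whose signal is the count scaled to the upper quartile of the AOI (Q3 normalization). That level was the same in all 48 AOIs, so the tables share 1 scale. Dividing by the scale factor gave whole counts for 99.98% of values (tolerance 0.02), and 15777 genes matched exactly 1 tag.

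The main test was limma 3.58.1 (R 4.3.3) on log2(signal + 1) with an intensity trend and Benjamini-Hochberg adjustment over 15782 genes, so a fold change understates that of low genes. Within a region the 12 AOIs of the 4 groups entered the fit (8 residual degrees of freedom). Over regions, the 16 combinations of region and group were fitted with the mouse as a random block (correlation 0.0255). A call needed an adjusted p under 0.05 and a change above 1.5-fold, and for the interaction and the difference between regions an adjusted p under 0.05 alone. Averages over regions are also given without the fold limit, a rule added after seeing the data. The edgeR 4.0.16 quasi-likelihood test and DESeq2 1.42.0 on the recovered counts were alternatives, with other pseudocounts, filters, scalings and covariates, and each mouse was left out in turn. The covariates of depth and nuclei, the averaged BuOE comparisons and the edgeR test on summed counts were chosen after seeing the data. The limma and edgeR fits were tested on simulated data. The simulated AOIs were drawn independently, with no effect of mouse or slide, so they do not test the mouse block.

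The genes, the lists and the tests were chosen with earlier results of these data known. Named genes were *Syp*, *Snap25* and *Syt1* in each region, members called within a region, the 4 called members with the largest difference in each comparison of regions, and, chosen after their values were seen, all others, among them members just outside the limits and those that passed in the averaged comparisons. The sample labels name no pairing between same-numbered mice of different groups. Gene positions came from GENCODE release 21 for the mouse (GRCm38), with 71 of 71 symbols matched, and promoters from RefSeq. The values of 2 of the 71 genes are not reported here by name, although both entered every fit and count.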

Additional observations from a re-analysis of the deposited data

Results flagged for a closer look

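For 4 genes every FLT-SAL mouse lay above every GC-SAL mouse in 1 region and below in another, as for 2.67% of all genes. The saline flight difference of *Syt13*, a synaptotagmin that binds no calcium, was 0.54 in DG and -0.45 in CT on the log2 scale. That of *Stxbp6* was 0.37 in DG and -0.44 in CT, that of *Stx8*, an endosomal syntaxin, 0.32 in FCT and -0.26 in CT, and that of *Vamp8*, a vesicle SNARE of secretory and endosomal membranes, 0.38 in CA and -0.23 in DG. The difference between the 2 regions of each pair was not tested as such. In the test of each region against the mean of the other 3, *Syt13* stood at 0.66 for DG (limma adjusted p = 0.64) and -0.66 for CT (limma adjusted p = 1.00), and *Stxbp6* stood at -0.61 for CT (limma adjusted p = 1.00). Depth did not overlap between the saline groups in CA, DG or FCT. With log2 depth as a covariate *Syt13* stood at -0.04 in DG and -0.50 in CT, with the same sign. The other 3 kept opposite signs under that covariate, with *Stxbp6* at 0.23 in DG and -0.25 in CT, *Stx8* at 0.35 in FCT and -0.14 in CT, and *Vamp8* at 0.36 in CA and -0.13 in DG. *Vamp8* was low, with regional means of 22.6 to 28.0 where the negative controls averaged 11.2 to 18.6.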

How the results depend on the processing

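The counts for FLT-BuOE against FLT-SAL in CA and in DG and for the interaction within regions were 0 under every alternative run. DG against CA gave 7 to 8 calls with any mouse left out, against 8, and 36 with background subtracted, and hippocampus against cortex gave 17 to 18, against 17, and 30 with background subtracted. FCT against CT gave 0 to 1 with a mouse left out (1 without FLT-SAL 2, GC-BuOE 1 or GC-SAL 3).

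The saline flight counts within regions moved by 1 to 3 genes. CA (0) gave 1 with edgeR, 1 with a pseudocount of 5, 2 with a filter at 1.5 times background, 1 with nuclei as a covariate, 2 with the compared groups alone and 0 to 2 with a mouse left out (GC-BuOE 1, 2 or 3, GC-SAL 1 or 2). DG (2) gave 0 with depth and 1 with nuclei as a covariate, and 2 with any mouse left out. FCT (0) gave 2 with edgeR, 1 with a pseudocount of 5, 1 with the compared groups alone and 0 to 1 with a mouse left out (1 without FLT-BuOE 1 or 3, FLT-SAL 3 or GC-BuOE 2), and CT (0) gave 0 to 1 (1 without FLT-SAL 1 or GC-SAL 2). With depth as a covariate the saline difference in CT was -0.047 for *Syp*, -0.026 for *Snap25* and -0.11 for *Syt1*, and with a mouse left out it ran from -0.050 (without GC-SAL 3) to 0.51 for *Syp* and from -0.047 to 0.50 for *Snap25*. The cause was not tested.

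The averaged saline count with both limits (0) was 1 with background subtracted and 1 with depth as a covariate. Without the fold limit (13) it was 1 with depth, 5 with nuclei, 1 with edgeR on summed counts, and 4 to 14 with a mouse left out. FLT-BuOE against GC-BuOE gave 1 within regions (0) with edgeR or background subtraction and 0 to 1 with a mouse left out, and averaged (3) it gave 1 with background subtraction or edgeR on summed counts and 1 to 4 with a mouse left out. With a mouse left out, FLT-BuOE against FLT-SAL gave 0 to 1 in FCT, in CT and averaged, GC-BuOE against GC-SAL 0 to 1, the averaged interaction 0 to 2, and the difference between regions 0 to 1.

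With the replicate number as a block the saline counts were 3 in CA and 2 in DG, and 1 each in FCT and CT. A fixed block gave 1 call for the difference between regions, and 2 with edgeR, and without the mouse block the averaged saline count was 14. The pairing check gave correlations of -0.179 to 0.125 between same-numbered mice. In most comparisons, above all in CA, a mouse correlated best with its own number among the 3 mice of another group. In the others it did not. What same-numbered mice may share was not tested. The block changed no other call count by more than 1.5 times. The fixed block, by limma or edgeR, was not run for the averages of flight and BuOE, because mice are nested in groups. With 3 mice a group, limma within a region called 0 to 2 of the 71 genes in any comparison of groups, and slide cannot be told apart from group.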

Other observations

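The neuronal vesicle genes did not share 1 order over the regions. *Syt7*, whose level was highest in DG, averaged 331 ± 83.9 (SD, n = 12 AOIs) there, against 182 ± 40.8 in CA, 172 ± 26.0 in FCT and 158 ± 26.6 in CT, and the last 3 differed by less than 1 SD. *Syp* averaged 217 ± 49.5 in DG and 217 ± 46.9 in CA, below 331 ± 60.5 in FCT and 383 ± 75.4 in CT. These means pool the 4 groups, and in DG *Syt7* spanned 424 to 447 in FLT-SAL and 221 to 269 in GC-SAL.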
